A study of Drosophila melanogaster and Drosophila biarmipes with 20 samples.

Results

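Open chromatin of the late pupal wing of Drosophila melanogaster was compared between 78% and 48% of pupal development, with 60% and 69% used to date each change. A region was called opened if both 78% libraries and neither 48% library listed it as accessible, and closed if both 48% libraries and neither 78% library did. Regions were the merged union of the lists of all 10 D. melanogaster libraries, 98646 in all, of which 71157 were listed by at least 1 of the 4 libraries compared and are called assessed. Of these, 11773 regions opened and 3746 closed, 15519 together. The comparison used ATAC-seq, in which a transposase cuts and tags accessible DNA, on male pupal wings, with 2 libraries of 78% and 2 of 48%. The stages between them, and the wing discs of 0% pupal development, had 2 libraries each. Every group was male, of D. melanogaster lines kept at one temperature and light cycle, with no treatment and no allele named in the labels. A library pooled 24 wings at 60% and later or 24 discs at 0%, while the stage labelled 48%, for which the protocol writes 47%, used 14 to 17 wings taken from 11 or more animals. Wings older than 60% were cut before disruption, so this step separates 69% and 78% from 48%.

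Between these stages the wing is a bilayer of epithelial cells that have stopped dividing, have each grown an actin-filled hair and then secrete the cuticle of the adult blade. Ecdysone, the steroid hormone of moulting, peaks in the pupa and then declines, and its nuclear receptors time the deposition of cuticle. Late in pupal life the epidermis makes catechols from tyrosine, which oxidases in the cuticle turn into black and brown melanin or colourless sclerotin. Accessible regions mark candidate enhancers and promoters of the genes in use or held ready.

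The 78% libraries listed 68580 and 80702 regions, against 41485 and 51422 in the 48% libraries. They covered 18.0 and 21.3 Mb at 78%, against 18.4 and 18.8 Mb at 48%. Region counts did not overlap between the stages and covered lengths did, and in neither could an exact two-sided permutation test of 2 against 2 libraries go below its smallest p of 0.333. The 78% lists held more and narrower regions, with medians of 165 and 167 bp, against 325 and 189 bp at 48%. Total tags were 56282342 and 90501419 at 78%, against 71365625 and 67358505 at 48%. Of these, 37.5% and 39.2% lay in listed regions at 78%, against 62.5% and 62.8% at 48%. The fragment length the peak caller estimated for each library, which sets where its windows fall, was 52 bp in both 78% libraries, against 162 and 206 bp at 48%. Headers place all of these libraries but replicate 2 of 78% in 1 dated sequencing folder, and no 48% library in the other, so replicate 1 of 78% gives the values within a folder. The 8 wing epithelium markers (vg, sd, nub, ap, wg, salm, bs and Dll) were all listed at both stages, over 54.1 and 64.9 kb in the 78% libraries and 76.4 and 71.9 kb in the 48% libraries. The part of tag share, fragment length, folder and cutting of the wing in the calls was not tested. In whole wings, a region open in fewer cells and a region less open in each cell cannot be told apart.

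Opened regions were 16.5% and closed regions 5.26% of all assessed regions, the background for the counts below. On the X chromosome 22.3% of assessed regions closed, so closed counts of X-linked genes are to be read beside that share. A further 21372 regions, 30.0%, were listed by all 4 libraries. Just outside the rule lay 22037 regions listed by 1 library of 78% and none of 48%, and 3773 listed by 1 library of 48% and none of 78%. Of those 22037, replicate 2 of 78%, the library with more tags, listed 14541 and replicate 1 the other 7496. Another 3705 regions were listed by both 78% libraries and 1 of 48%, and 2628 by both 48% libraries and 1 of 78%. A rule without replicate 1 of 78% called 26314 regions opened, and without replicate 2 it called 19269, so the opened count rests on both. Closed regions numbered 6120 without replicate 1 of 48% and 5678 without replicate 2 of 78%. Which direction was more frequent depended on the length of the lists: with an equal number of entries from each library, 4859 regions opened and 6122 closed.

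The changes were spread over the whole interval. Of the opened regions, 3551 (30.2%) were first listed by both libraries at 60%, 4208 (35.7%) at 69% and 4014 (34.1%) at 78%. Of the closed regions, 1591 (42.5%) were first absent from both libraries at 60%, 917 (24.5%) at 69% and 1238 (33.0%) at 78%. Of the opened regions first seen at 60%, 92.3% were listed by both 69% libraries. Of the closed regions first absent at 60%, 91.1% were absent from both. The rule leaves out changes at 60% that had reversed by 78%, so these shares cannot show how often such changes hold. A return to the 48% state in both 69% libraries was seen in 51 opened and 47 closed regions. The dating of opening differed between libraries. Replicate 2 of 60% listed 33.0% of the opened regions where replicate 1 listed 53.2%. Replicate 2 of 60% also had a longer fragment length estimate, 138 bp against 50 bp in replicate 1. It had fewer tags, 86538200 against 113014233, and listed 48036 regions against 71280. Its folder was that of replicate 2 of 78%, and replicate 1 of 60% came from the other. The part of these differences in the dating was not tested. Without replicate 2 of 60%, the share of openings dated to 60% is by definition the 53.2% that replicate 1 listed. Without replicate 1 of 78% the share dated to 60% was 17.3% and the share dated to 60% or 69% was 39.8%, against 65.9% with all libraries. Without replicate 2 of 78% these shares were 20.5% and 46.3%. At 69% the libraries were close, listing 74.7% and 71.3% of the opened regions and 29.0% and 28.9% of the closed ones.

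**Figure D1:**
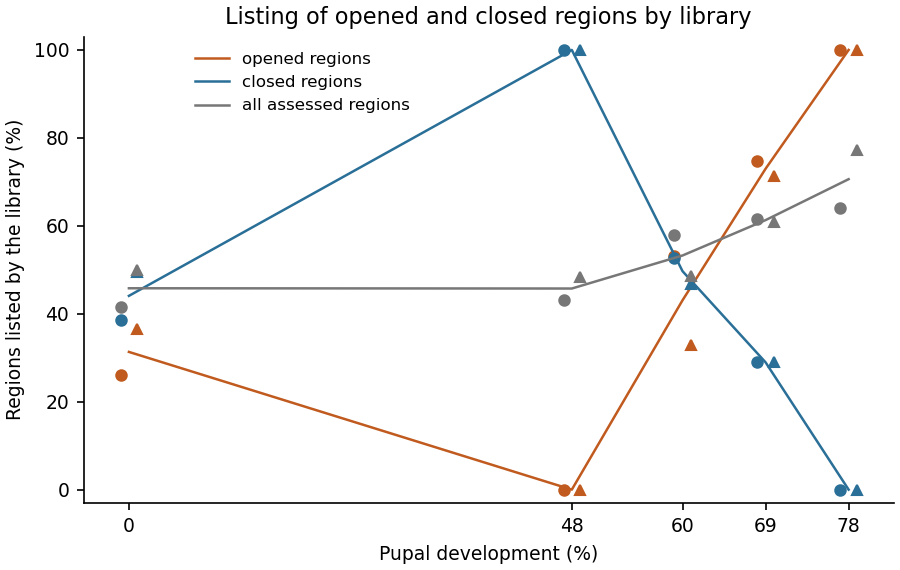
Share of opened, closed and all assessed regions listed by each library (%, vertical axis) against pupal development (%, horizontal axis, to scale). Circles are replicate 1, triangles replicate 2 and lines join means. At 48% and 78% the opened and closed shares are 0 or 100 by the rule. At 69% both libraries list over 71% of the opened and under 30% of the closed regions.

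The wing disc, which the rule did not use, already had part of the opened set. Both 0% libraries listed 2945 opened regions (25%) and neither listed 7343 (62.4%), while 40.7% of all assessed regions were listed by both. The share present in both disc libraries fell with the date of opening, and was 37.3% of regions first seen at 60%, 26.0% at 69% and 13.2% at 78%. Closed regions ran the other way. Both disc libraries listed 26.0% of those first absent at 60%, 39.8% at 69% and 50.9% at 78%. Thus 61.9% of the regions gone by 60% were absent from both disc libraries, being listed at 48% but neither in the disc nor at 60%. Width went with these dates. The median region was 412, 292 and 191 bp wide for openings first seen at 60%, 69% and 78%, and 341, 435 and 485 bp for closings, against 350 bp for assessed regions. Widths are those of the merged union, which each further listing library can only widen. Regions opened earlier or closed later can be listed by more libraries, so the merge favours this trend by construction. The part of the merge in the widths, and of width in the disc shares, was not tested. Of the changed regions, 20.8% of the opened and 14.8% of the closed regions were within 500 bp of an end of a protein-coding gene, against 42.2% of the regions listed by all 4 libraries and 26.5% of all assessed ones. The median distance to the nearest gene end was 2488 bp for opened and 4132 bp for closed regions, against 2128 bp for all assessed regions.

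The closed share was highest on the X chromosome, of which a male carries a single copy. There 1155 of 5172 assessed regions closed (22.3%) and 467 opened (9.03%). On arms 2L, 2R, 3L and 3R together 3.96% closed and 16.7% opened, with closed shares between 3.86% and 4.11% for single arms. The X-linked assessed regions were listed at 59.0% and 60.3% in the 78% libraries, against 77.3% and 76.7% in the 48% libraries. The stages between gave 70.1% and 64.6% at 60% and 67.4% and 65.4% at 69%, and the disc 55.5% and 61.9%. Assessed regions are listed at 48% or 78% by definition, so regions listed only at other stages are left out, which favours the end stages. Whole lists held 4916 and 5437 X regions at 48%, against 5778 and 7863 in the disc and 4651 and 4772 at 78%. They held 6375 and 4403 at 60% and 5744 and 5706 at 69%. On the other arms the listed share was 64.1% and 78.5% at 78%, against 40.7% and 46.5% at 48%. The X share of opened regions was below that of the other arms in each of the 7 alternatives tried. The gap moved most with the 78% libraries, to 13.1% against 43.4% without replicate 1 and 12.1% against 35.5% without replicate 2. The X share of closed regions exceeded that of the other arms in the same 7, for example 29.3% against 11.8% when every library gave an equal number of entries and 25.8% against 8.62% within the first sequencing folder. Of the X-linked closings, 523 were first absent at 60%, 304 at 69% and 328 at 78%. On the Y chromosome 122 of 198 assessed regions opened (61.6%) and none closed, and on unplaced scaffolds and the mitochondrial sequence 56.7% opened.

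**Figure D2:**
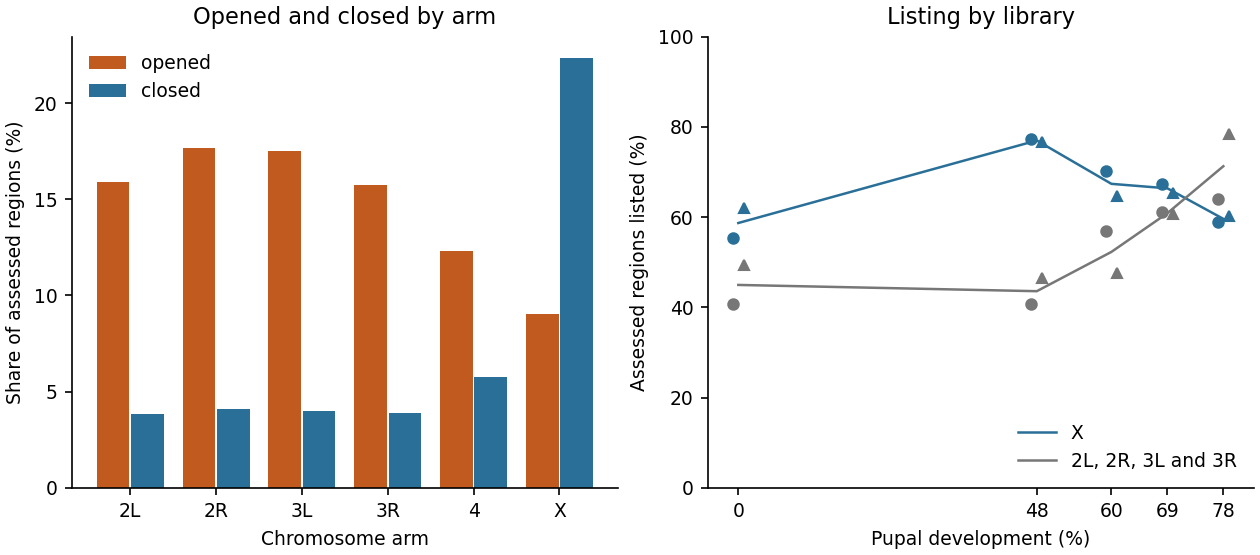
Left, share of assessed regions opened and closed (%) on each chromosome arm, and right, share of assessed regions listed (%) in each library against pupal development (%), for the X and for 2L, 2R, 3L and 3R together. Circles are replicate 1, triangles replicate 2 and lines join means. The X has a closed share of 22.3%, and its listed share is highest at 48% and near 60% in both 78% libraries. Assessed regions are those listed at 48% or 78%, which favours these stages over the others.

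Genes were described through the regions that overlap them or lie within 10 kb. Of 11625 protein-coding genes with an assessed region, 4790 (41.2%) had an opened region, 1923 (16.5%) a closed one and 1020 both. Gene lists differed in how much of their chromatin changed. Opened shares were highest for melanin and sclerotin enzymes (20 of 64 regions, 31.2%), the Dpr and DIP cell surface proteins (222 of 830, 26.7%), tanning hormones and their receptors (15 of 65, 23.1%) and muscle markers (92 of 400, 23%). Without replicate 1 of 78%, the excess of the melanin and sclerotin enzymes over all regions was 2.73 percentage points, against 14.7 with all libraries, and that of Dpr and DIP (16.5), muscle (10.2) and sensory organ and neuron markers (6.38) was larger. Tanning hormones and receptors stood at -1.01 points relative to all regions without replicate 1 of 78% and at -1.31 without replicate 2, so their place rests on both libraries. Opened shares were lowest for the apical matrix (27 of 284, 9.51%), chitin synthesis (20 of 192, 10.4%) and wing patterning (76 of 716, 10.6%). Closed shares were highest for hair and bristle actin (32 of 258, 12.4%), wing patterning (81 of 716, 11.3%), the apical matrix (29 of 284, 10.2%) and planar polarity (23 of 227, 10.1%). In all 6 alternatives run for the lists (each of the 4 libraries left out, coverage of at least 50% of a region, and only regions overlapping the gene), melanin and sclerotin enzymes, muscle, sensory organ and neuron, and Dpr and DIP stayed above all regions in opened share. Chitin synthesis, the apical matrix, hair and bristle actin, planar polarity, ecdysone response, wing patterning and trachea did so in closed share. The Dpr and DIP list was chosen after its genes had stood out in these data, so its high opened share is not independent of that choice. DIP-lambda alone held 110 of the 222 openings of that list, in 224 of its 830 assessed regions. None of the 6 alternatives left this gene out, so they do not show how the list stands without it. On 2L, 2R, 3L and 3R alone, the closed share was 10.2% for planar polarity, 9.05% for wing patterning and 7.36% for the apical matrix, but 4.73% for hair and bristle actin, against 3.96% for all regions there.

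**Figure D3:**
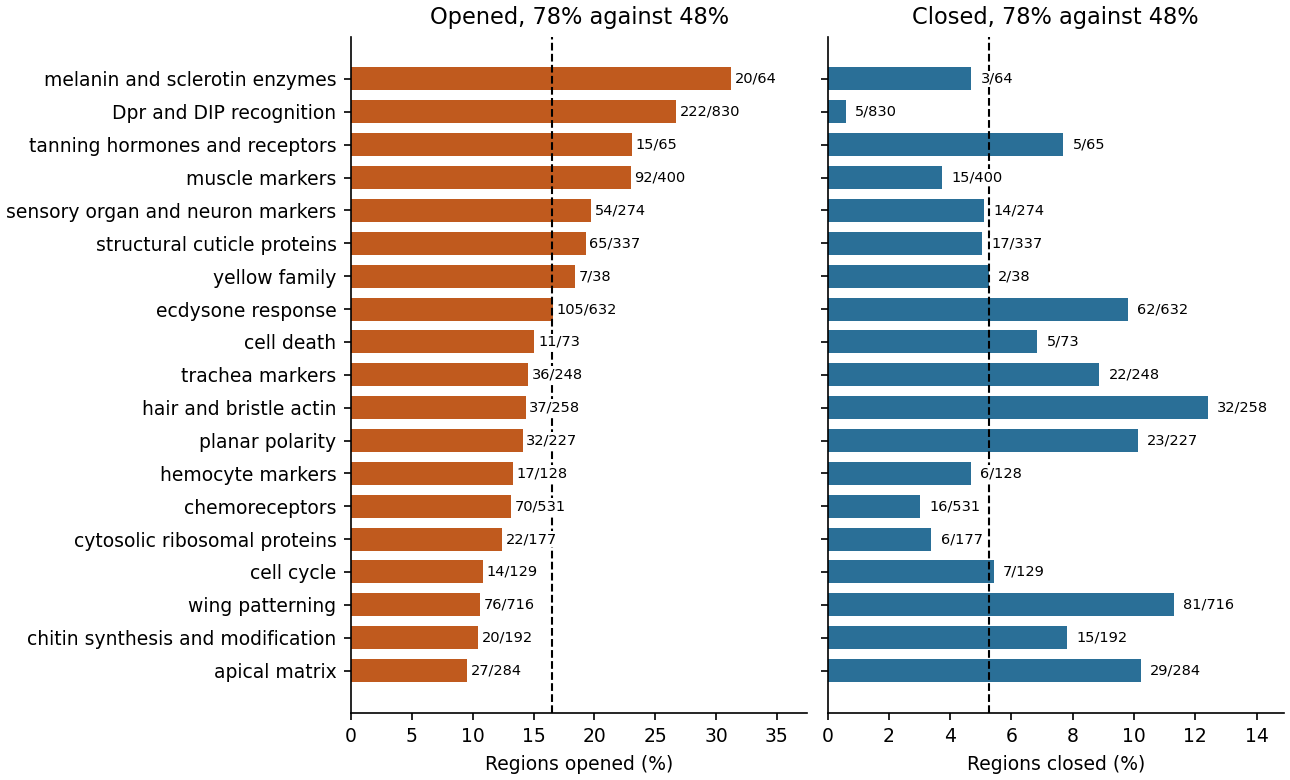
Share of the assessed regions of each of 19 gene lists that opened (left) and closed (right), in %, with counts beside the bars. Dashed lines mark 16.5% and 5.26%, the shares over all assessed regions. Melanin and sclerotin enzymes head the opened side at 31.2% and hair and bristle actin the closed side at 12.4%.

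The enzymes of pigment and tanning opened at different stages. The laccase gene stw, whose product oxidises catechols in the cuticle, had 6 of 17 regions opened, 4 first seen at 60% and 2 at 69%. Its regions were listed over 5.17 and 4.32 kb in the 78% libraries, against 4.33 and 4.10 kb at 48%, after 8.14 and 7.04 kb at 60%. The tan gene t, which releases dopamine from its beta-alanine conjugate, had 3 of 4 regions opened, all first seen at 69%. They took its listed length to 1.26 and 1.03 kb at 78%, against 0.466 and 0.157 kb at 48%. For t the 69% and 78% values lay apart from all earlier ones. Dopa decarboxylase, Ddc, had 5 of 7 regions opened, 1 first seen at 69% and 4 at 78%. Its listed length was 2.85 and 2.92 kb in the 78% libraries, against 1.18 and 1.22 kb in the 48% libraries. Each of the 4 last regions of Ddc was listed in none of the 8 libraries before 78%.

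Tyrosine hydroxylase, ple, the first enzyme of the catechol pathway, changed most at the last step. Its regions spanned 7.91 and 10.6 kb in the 78% libraries, against 1.63 and 1.43 kb in the 48% libraries, and between 2.19 and 2.52 kb at 60% and 69%. A single region inside the gene, 3L:6714760-6718421, held much of this, with 3162 and 3662 bp listed at 78%, against none at 48%. It was dated to 60% by the rule, with 308 and 300 bp listed there and 303 and 291 bp at 69%, so most of its length came after 69%. The 3 other opened regions of ple were first seen at 78%. Ebony, e, which conjugates dopamine to beta-alanine, had no opened or closed region among 5, but its listed length was 2.56 and 3.09 kb at 78%, against 1.75 and 1.47 kb at 48%, and was highest at 69% with 4.25 and 3.89 kb. The only region of b, which makes beta-alanine, was listed over at most 0.176 kb in any library and was not called. Speck, an arylalkylamine N-acetyltransferase gene, had 2 of 8 regions closed and none opened.

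The yellow gene, y, needed for black melanin, went the other way. Its regions covered 0.416 and 0.436 kb in the 78% libraries, against 6.93 and 7.88 kb in the 48% libraries, and no 60% or 69% library exceeded 0.919 kb. The rule caught 1 of its 3 regions, at X:356175-356961, as closed and first absent at 78%. The larger one, X:357760-364752, which begins in the gene and runs past its end, was still listed at 78% and so not called, but over 416 and 436 bp, against 6457 and 6987 bp at 48%. Over the yellow family, 7 of 38 regions opened (18.4%), 4 of them first seen at 69%, and 2 closed. Relative to all regions, the opened share of the family was 1.88 percentage points with all libraries. It was -4.97 without replicate 1 of 78% and 2.33 without replicate 2. The openings included the opened region of yellow-c, whose listed length was 2.74 and 2.40 kb at 78%, against 0.952 and 0.986 kb at 48%.

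**Figure D4:**
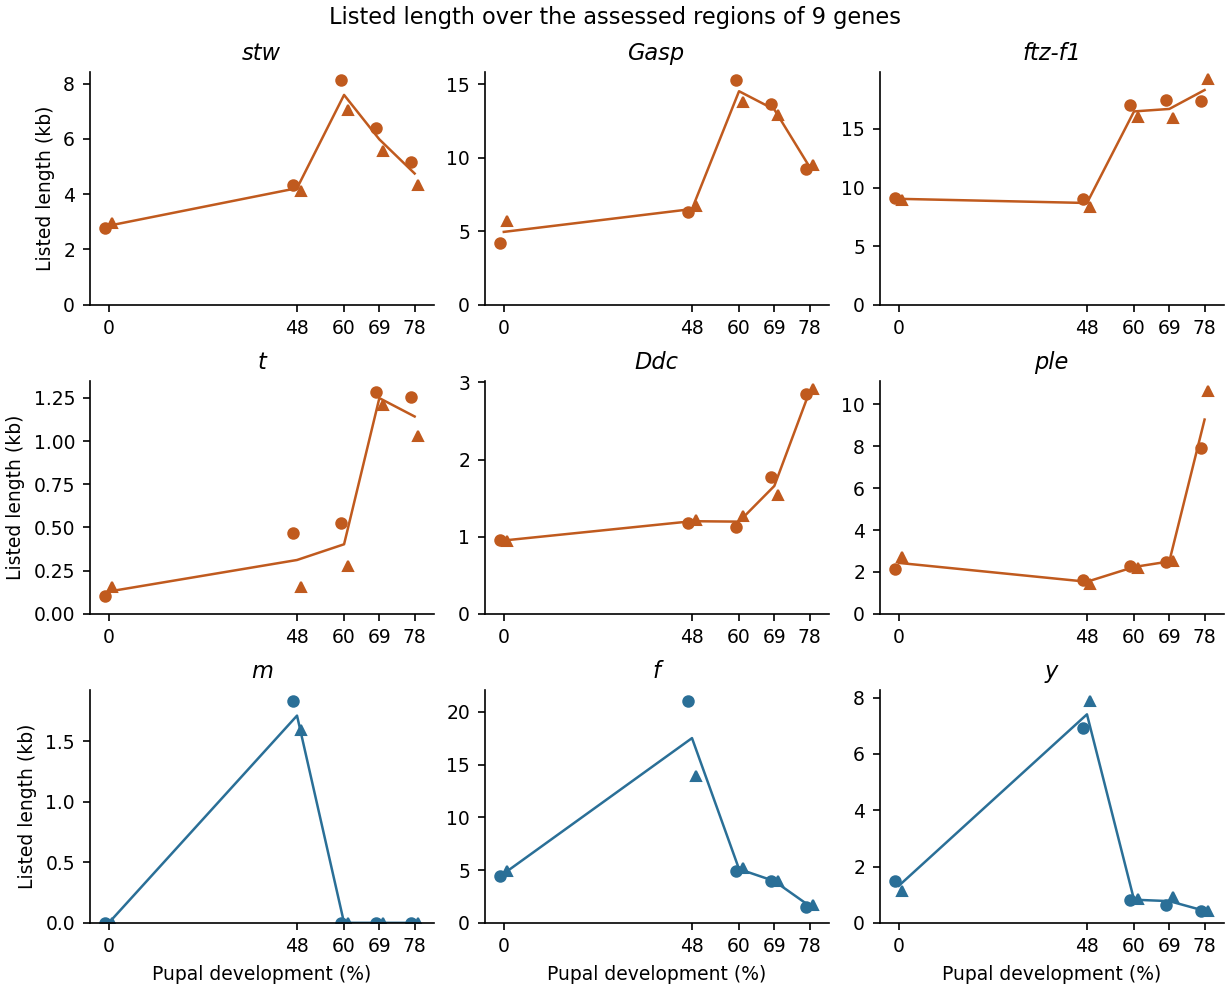
Listed length (kb) over the assessed regions of 9 genes in each library against pupal development (%). Circles are replicate 1, triangles replicate 2, lines join means, and vertical scales differ. Listed length of stw and Gasp peaks at 60%, t is high from 69%, Ddc and ple are highest at 78%, and m, f and y are highest at 48%. Of these, m and f were named for their closed regions.

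Structural cuticle proteins, which bind chitin and stiffen the cuticle, had 65 of 337 regions opened (19.3%) and 17 closed (5.04%). Without replicate 1 or replicate 2 of 78%, the opened share relative to all regions was -1.08 and -3.38 percentage points, against 2.74 with all libraries. Of the openings, 27 were first seen at 60% (41.5%, against 30.2% of all opened regions), 21 at 69% and 17 at 78%. Gasp, a chitin-binding protein gene, had 5 of 12 regions opened, all first seen at 60%, 4 of them beside the gene. Its listed length was 9.27 and 9.49 kb in the 78% libraries, against 6.33 and 6.70 kb in the 48% libraries, and reached 15.3 and 13.8 kb at 60%. Cpr62Bc had 4 of 7 regions opened and TwdlM 3 of 6. Cpr76Bd, picked after its values were seen, had no called region among 3, yet its listed length was 5.98 and 7.49 kb at 78%, against 1.95 and 1.86 kb at 48%, with 10.4 kb in both 60% libraries. Cpr66Cb ran the other way, with 3 of 5 regions closed and 0.901 and 1.41 kb listed at 78%, against 5.11 and 5.12 kb at 48%. Its neighbour on 3L, CG34462, had the only assessed region assigned to it, 3L:8330307-8332646, closed by 69%. None of it was listed at 78%, against 1987 and 2168 bp at 48%.

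Chitin synthesis and modification genes had 20 of 192 regions opened and 15 closed (7.81%). Of the openings 11 were first seen at 60%. The deacetylase-like gene Cda5 had 6 of 20 regions opened and, like Gasp, its greatest listed length at 60%, 20.7 and 19.0 kb. It had 9.29 and 9.42 kb listed at 78%, against 9.98 and 7.71 kb at 48%, so the end stages overlapped. Regions of exp, which is needed for chitin synthesis, covered 8.48 and 11.3 kb at 78%, against 19.6 and 16.1 kb at 48%, and 7 of its 27 regions closed. Cht6, a chitinase gene on the X, had 4 of 14 closed (28.6%, against 22.3% of all assessed X regions).

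The apical matrix list holds zona pellucida domain and related proteins that join the cell surface to the forming cuticle. It had 29 closed regions, 19 of them first absent at 60%. The gene m, miniature, was picked after its values were seen, as the only gene with 4 or more assessed regions that all closed. Its 4 regions were listed over 1.83 and 1.59 kb at 48% and in no other library of any stage. The giant matrix gene dpy had 7 of 108 regions closed and 9 opened, with 20.0 and 33.3 kb listed at 78%, against 40.3 and 34.6 kb at 48%. The zona pellucida gene tyn, on the X, had 5 of 16 closed (31.25%, against 22.3% of all assessed X regions) and 4 opened. The matrix gene tnc had 4 of 29 closed and 5 opened.

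Genes of hair and bristle actin split by member. Forked, f, which bundles actin in bristles and wing hairs, held 15 of the 32 closed regions of the list, with 9 first absent at 60%, 4 at 69% and 2 at 78%. Its regions were listed over 1.54 and 1.66 kb in the 78% libraries, against 21.1 and 14.0 kb in the 48% libraries, and over 4.96 and 5.24 kb at 60% and 4.41 and 4.93 kb in the disc. The region with most listed bases, X:17273499-17275773, had none listed at 78%, against 2275 and 1805 bp at 48%. The actin nucleator spir had 6 of 33 regions closed and 4 opened. Nonmuscle myosin heavy chain, zip, had 11 of 24 regions opened and none closed, none first seen at 60%, 5 at 69% and 6 at 78%. Its listed length was 14.2 and 13.1 kb in the 78% libraries, against 6.30 and 5.87 kb in the 48% libraries. Over the list, 4 of 37 openings were first seen at 60% (10.8%, against 30.2% of all opened regions) and 19 at 78%. The transcription factor gene ovo, which drives hair formation, had 6 of 14 opened, 5 of them at 78%, the formin gene capu 4 of 21, and fry, which keeps hairs unbranched and was picked after its values were seen, 4 of 21.

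Planar polarity genes, which orient the hairs, had 32 regions opened (14.1%) and 23 closed. The receptor gene fz had 8 of 66 opened and 9 closed, 7 of these first absent at 60%. The atypical cadherin stan had 7 of 31 closed and none opened, with 3.37 and 4.51 kb listed at 78%, against 10.01 and 9.22 kb at 48%. The cadherin ds had 8 of 52 opened and 3 closed, and pk, which encodes a cytoplasmic LIM domain protein, 8 of 35 opened and 4 closed.

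Ecdysone response genes had 105 of 632 regions opened (16.6%, as in the background) and 62 closed (9.81%). Their opened share matched the background only with both 78% libraries. It was 13.3 percentage points below all regions without replicate 1 of 78% and 8.82 below without replicate 2. Of the closings, 31 were first absent at 60%. The nuclear receptor gene ftz-f1, which is known for acting after the hormone has declined, had 13 of 38 regions opened and none closed, with 10 first seen at 60%. Its listed length was 17.4 and 19.3 kb in the 78% libraries, against 9.04 and 8.32 kb in the 48% libraries, and was already 17.0 and 16.0 kb at 60%. All 6 libraries from 60% on lay above the 48% libraries. Eip93F, a late ecdysone-induced transcription factor gene, had 21 of 57 regions opened, 7 first seen at 60%, 10 at 69% and 4 at 78%, and 4 closed. Its listed length was 16.2 and 18.3 kb at 78%, against 12.0 and 10.5 kb at 48%. Eip75B, an early receptor gene, had 9 of 58 opened and 6 closed, with 30.2 and 34.0 kb listed at 78%, against 63.8 and 37.4 kb at 48%, where replicates differed. The receptor gene Hr4, on the X, had 7 of 28 closed (25%, against 22.3% of all assessed X regions), 6 of them by 60%. The coactivator gene tai had 8 of 60 closed and 9 opened.

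Tanning at eclosion is triggered by the hormone bursicon, and rk, its receptor, had 7 of 18 regions opened and 1 closed. The listed length of rk was 5.41 and 6.18 kb in the 78% libraries, against 2.95 and 3.30 kb in the 48% libraries, and lay between them at 60% and 69%. The openings were first seen at 60% in 2 regions, at 69% in 3 and at 78% in 2. CCAP-R, a neuropeptide receptor gene, had 5 of 28 opened and 2 closed. Of the hormone genes, Eh had 2 of 6 opened and Pburs, a bursicon subunit, 1 of 3 closed.

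Wing patterning genes, which lay out the axes and veins of the wing, had 76 of 716 regions opened and 81 closed. On 2L, 2R, 3L and 3R alone they had 70 opened and 56 closed, so the surplus of closings over openings rests on the X. Their closed share on these arms, 9.05%, was still above the 3.96% of all regions there. The T-box gene bi had 11 of 26 regions closed and none opened, with 5.77 and 7.13 kb listed at 78%, against 16.1 and 15.4 kb at 48%. Notch, N, had 5 of 14 closed and 2.89 and 2.93 kb listed at 78%, against 7.41 and 7.51 kb at 48%. Both are X-linked, as are f, m, y, Hr4, Cht6, tyn and fzr, and 22.3% of all assessed X regions closed. The zinc finger gene salm had 8 of 21 opened, 6 first seen at 60%, with 9.50 and 11.8 kb listed at 78%, against 7.81 and 7.79 kb at 48%. The growth factor gene vn had 7 of 32 opened and 4 closed, and the transcription factor gene ab 6 of 30 opened and 2 closed. Lists for processes common to many cells were below or near the background in opened share. Cell cycle genes had 14 of 129 regions opened (10.9%) and 7 closed (5.43%), with 3 closings in the X-linked gene fzr, an activator of cyclin breakdown. Cell death genes had 11 of 73 opened and 5 closed, all 5 in hid, an inducer of apoptosis. Cytosolic ribosomal protein genes had 22 of 177 opened (12.4%) and 6 closed (3.39%).

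Markers of other cell types of the wing and its hinge did not change alike. Listed length over the defining markers lay apart between 78% and 48% for muscle and hemocytes, and overlapped for neurons and trachea. The 7 muscle markers fixed as defining (Mhc, sls, bt, Mef2, Msp300, Act88F and up) were listed over 57.5 and 71.5 kb in the 78% libraries, against 29.7 and 37.5 kb in the 48% libraries, with none at 0. The 48% values were below those of every other stage, which ran up to 77.5 kb in the disc. Of their 183 regions 47 opened (25.7%) and 1 closed. In the titin-like gene sls, 9 of 37 regions opened and 17.5 and 21.3 kb were listed at 78%, against 7.23 and 11.8 kb at 48%. Msp300, a giant nuclear envelope and muscle protein, had 26 of 84 opened, and the myosin gene Mhc 8 of 21. Sensory organ and neuron markers had 54 of 274 regions opened (19.7%) and 14 closed. The GABA receptor gene Rdl had 10 of 29 opened, 7 of them at 78%, the synaptic scaffold brp 11 of 33 and the mechanosensory channel nompC 8 of 22, while futsch, a microtubule-associated protein gene on the X, had 4 of 6 closed. The 7 defining neuron markers covered 11.3 and 14.1 kb at 78%, against 10.6 and 12.3 kb at 48%, with ase listed in none of these libraries.

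Defining hemocyte markers covered 6.70 and 8.76 kb at 78%, against 3.45 and 4.89 kb at 48%, with eater and PPO1 at 0 in all 4 libraries. Over the whole hemocyte list 17 of 128 regions opened (13.3%) and 6 closed. Defining trachea markers covered 18.8 and 23.6 kb at 78%, against 21.0 and 20.7 kb at 48%, with dys not found in the gene table. In the trachea list 36 of 248 opened (14.5%), only 3 of them dated to 78%, and 22 closed (8.87%). The part of these cell types in the calls was not tested. Chemoreceptor genes, with 70 of 531 regions opened (13.2%) and 16 closed (3.01%), were below the background on both sides, but their opened share was 4.16 and 3.02 percentage points above all regions without replicate 1 or replicate 2 of 78%.

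Single genes held many of the changes. DIP-lambda, one of the immunoglobulin proteins through which neurons recognise each other, had 110 of 224 regions opened, 27 first seen at 60%, 52 at 69% and 31 at 78%. Its listed length was 130 and 138 kb in the 78% libraries, against 10.3 and 25.5 kb in the 48% libraries, and 27.2 and 31.6 kb in the disc. Its openings were 110 of the 222 of its list, and it lies in the first 5 Mb of 2R, next to the centromere, where 41.3% of 950 assessed regions opened, against 16.0% on the rest of 2R. The genes rl, a MAP kinase, and CG40498 lie in the same 5 Mb and had 25 of 56 (44.6%) and 21 of 43 (48.8%) regions opened. In the first 5 Mb of 3R, where 20.9% of 812 assessed regions opened, Myo81F had 24 of 81 opened and Pzl 23 of 41. On 3L the gene CG17839 had 43 of 97 opened, 20 of them at 78%, with 33.6 and 29.8 kb listed at 78%, against 9.00 and 9.71 kb at 48%. The recognition genes dpr6 and dpr16 had 22 of 80 and 9 of 23 opened. The transcription factor gene fru had 27 of 115 opened, 16 first seen at 69%, and 12 closed.

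The most closed regions were in mbl, an RNA splicing regulator, with 33 of 119 closed and 4 opened. Of these closings, 18 were first absent at 60%, and the listed length of mbl was 13.2 and 16.6 kb in the 78% libraries, against 42.0 and 42.7 kb in the 48% libraries. The RNA-binding protein gene sm had 20 of 91 closed, 10 first absent at 60% and 7 at 69%, with 27.1 and 25.2 kb listed at 78%, against 54.8 and 59.3 kb at 48%. The adhesion gene kirre on the X had 21 of 57 closed and 6 opened. The PDZ domain gene bbg had 14 of 70 closed and 8 opened, and CG31176 had 14 of 45 closed and none opened. On the X, ec, spri and CG43658 each had 13 regions closed, of 34, 30 and 33. There mamo had 12 of 47 closed (25.5%), near the 22.3% of all assessed X regions.

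**Figure D5:**
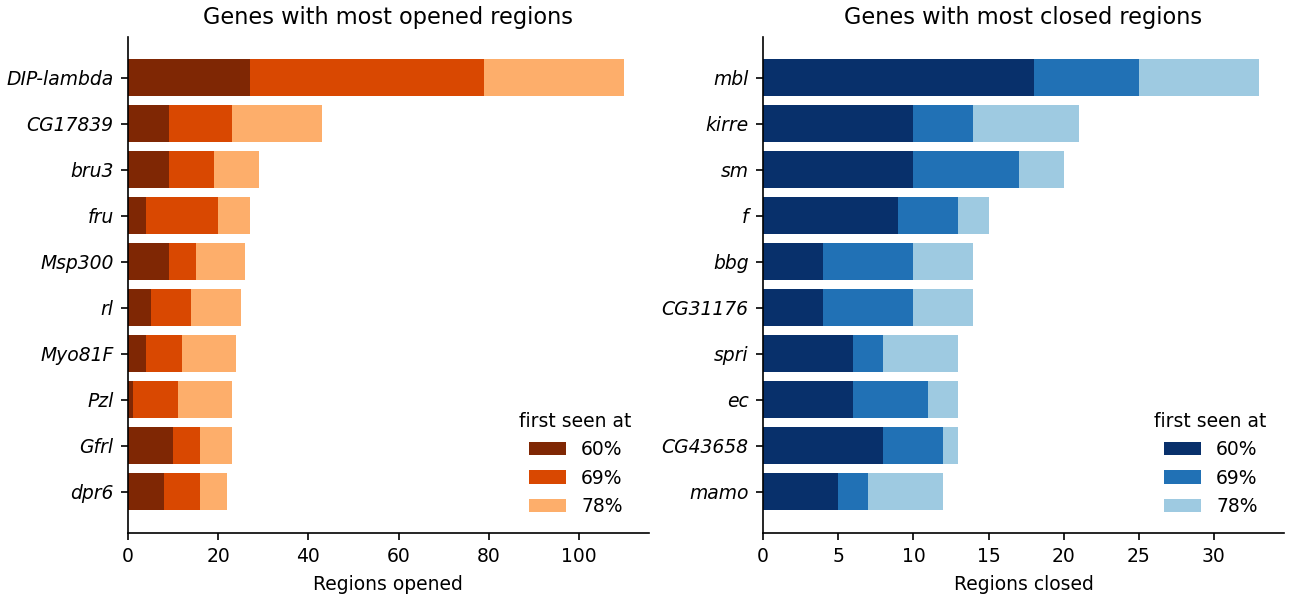
Number of regions opened (left) and closed (right) in the 10 genes with most of each, divided by the stage (%) at which the change was first seen in both libraries. DIP-lambda leads with 110 opened regions and mbl with 33 closed ones, 18 of these by 60%.

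Some single regions were wide and distinct. In DIP-lambda, 2R:487961-495405 was listed over 6835 and 7306 bp at 78%, against none at 48%, with 2043 and 914 bp at 60%. In CG9932, 2L:13029724-13031095 had 847 and 1372 bp listed at 78%, against none at 48%, and at most 101 bp before. Beside mol, 2L:14974144-14975420 had none listed at 78%, against 1274 and 1190 bp at 48%, and none in any 60% or 69% library. In CG15322 on the X, 20134273-20140006 had none listed at 78%, against 4499 and 5734 bp at 48%, though 101 to 431 bp kept it listed in 3 of the 4 libraries between. In Tie, a receptor tyrosine kinase gene, 3L:4519178-4521619 had none listed at 78%, against 2166 and 2373 bp at 48%, with 128 to 336 bp at 60% and 69%. In these 2 regions, as in y and ple, the date given by listing came later or earlier than the main change in listed length.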

How the data were processed

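Deposited region lists of the 10 D. melanogaster libraries were analysed, with 2 libraries a stage. Per the submitters' processing notes, Bowtie2, Picard, SAMtools, MACS2 and HOMER were used, with build dm6. Per the file headers, HOMER called regions without input in 100 bp windows at a Poisson p of 0.001. The deposited score is 1 throughout and was used only as a mark of listing, so depth per region is unknown, no interval was given and single regions have no p-value. Python 3.11.15, pandas 2.3.3 and SciPy 1.17.1 were used. Overlapping entries were merged, and 1 shared base counted as listed. Listed lengths of a gene are over its assessed regions, so regions listed only at other stages are left out. Genes came from RefSeq (the same assembly, spans only). Members and the 19 gene lists were chosen with earlier results of these data known, and the Dpr and DIP list after its genes had stood out. Of the list symbols 4 had no match. Named genes are those with most opened or closed regions, overall (10) and by stage (4), up to 3 opened and 2 closed per list, and 8 pigment genes. Alternatives varied overlap, list length, width, bins, arms, dating and libraries. Promoter sequences and motifs, planned, and D. biarmipes were not used here. Replicates measure the spread between pooled libraries.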

Additional observations from a re-analysis of the deposited data

How the results depend on the processing

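With the replicate number as a block, 11773 regions opened and 3746 closed within both same-numbered pairs, as the rule requires by construction. The paired differences per library averaged 28187.5 regions (exact sign-flip p = 0.5) and 1.08 Mb (p = 1), and 0.5 is the smallest p that 2 pairs allow. The libraries share only a number: deviations of same-numbered libraries in listed length correlated at -0.00928 over assessed regions. Opened regions numbered 6865 from the first 50% of each list, 1808 from its first 10000 entries, 4859 from an equal number of entries per library, 5552 with regions of at least 300 bp, 31243 from the authors' pooled lists and 12706 to 26314 with a library left out. Closed regions numbered 6857 where at least 50% of the region had to be covered, 2443 from the first 10000 entries, 6122 from an equal number, 6445 from pooled lists and 4442 to 6120 with a library left out. With equal numbers, and in the first 10000 entries, closed regions outnumbered opened ones, so the excess of openings depends on how many entries each list holds. The share of openings dated to 60% was 48% at 300 bp or wider, 56% if either library counted and 17.3% to 53.2% with a library left out. By 69% it was 60.4% at 50% coverage, 71.7% in the first 50% of lists, 70.6% in the first 10000 entries, 84.7% at 300 bp, 72.6% in bins of 1 kb, 84.6% for either library and 39.8% to 76.1% with a library left out. The share of closings dated to 60% was 47.7% in the first 10000 entries, 34.8% at 300 bp, 36% in bins, 58.2% for either library and 32.5% to 53.3% with a library left out. By 69% it was 72.9% at 50% coverage, 72.7% in the first 50% of lists, 80.6% in the first 10000 entries, 73.8% with equal numbers, 61.4% at 300 bp, 64.9% on 2L, 2R, 3L and 3R, 62.5% in bins, 82.7% for either library, 63.2% where the change had to hold at later stages and 52% to 73.7% with a library left out. Leaving out 1 library put 5 to 9 of the 19 lists above all regions in opened share, against 8, and 10 to 14 in closed share, against 10. The difference in regions per library, 28187.5 more at 78%, became -3777 for entries of at least 300 bp, so it rests on narrow entries. The difference in listed length, 1.08 Mb, ran from -0.584 Mb without replicate 2 of 78% to 2.75 Mb without replicate 1. The alternatives for the X shares and leave-outs of library measures were chosen after the data were seen. Of all alternative values, 205 stayed within the spread or on the same side, 153 moved and 2 reversed, and apart from the constructions named the cause was not tested. Depth per region is unknown, so a region not listed may still be open below the caller's threshold.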

Other observations

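Among genes with at least 3 assessed regions, 6 had all of them opened and 3 all closed, and these were looked at after their values were seen. CG17029 had 3 opened regions, all first seen at 60%, with 1.30 and 1.22 kb listed at 78%, against 0 in both 48% libraries, and at most 0.14 kb in the disc. CG5376 had 3, all first seen at 69%, with 0.401 and 0.547 kb at 78%, against 0 at 48% and in the disc. Srg2 and CG8476 were listed in both disc libraries and in neither 48% library, Srg2 over 1.46 and 1.68 kb in the disc. FDY and kl-5 lie on the Y and were listed only from 60% on, over 0.542 and 0.612 kb for FDY and 0.455 and 0.417 kb for kl-5 at 78%. The genes with all regions closed were m, CG32855 and CG45064. CG45064 had none listed at 78%, against 2.96 and 2.77 kb at 48%, with 1.48 kb in both 60% libraries.

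Neither disc library listed 1853 of the 3746 closed regions (49.5%), close to the 49.1% of all assessed regions. The genes m, f and y had their greatest listed length at 48%, above the disc and all later stages, while muscle markers had their smallest there. Because m and f were named for their closed regions, 48% above 78% follows from that choice. Lengths over assessed regions also favour 48% and 78% over the disc. The X, where m, f and y lie, was likewise longest at 48%, with 2172 and 2098 kb. It had 1874 and 1845 kb in the disc and 1196 and 1230 kb at 78%.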
